A study of Mus musculus with 8 samples.

Results

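RNA levels of 6 genes linked to tendon were compared in cultured mesenchyme of the embryonic palate. The genes were the transcription factors Scx, Mkx and Six2 and the tendon products Tnmd, Tnxb and Thbs4. They were taken by name from the 18193 genes measured, using every probe set with 1 gene symbol. They had 7 probe sets, of which Scx had 2 and each other gene 1, and the probe set with the highest mean represented a gene. The mutant cells came from Tgfbr2 fl/fl; Wnt1-Cre embryos, in which Cre recombinase driven by Wnt1 removes the floxed segment of the TGF-beta type II receptor gene in neural crest cells and their descendants. The control cells came from Tgfbr2 fl/fl embryos without Cre, so the floxed alleles are common to both groups, although the sample titles call the controls wild type. All embryos were C57BL/6J mice at embryonic day 13.5, and RNA was taken after 2 passages of the palatal cells in culture. Each genotype had 4 Affymetrix arrays, a number that limits the precision of every value, and the labels do not say whether each culture came from a different embryo, so each p-value covers only the spread among these 8 cultures, part of which may be technical. Cells in the dish that do not descend from neural crest keep the receptor gene.

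Tendons join muscle to bone, and their fibroblasts arise from mesenchyme that switches on Scx, a basic helix-loop-helix transcription factor. Mkx, an atypical homeobox factor related to the Iroquois genes, acts later and maintains collagen production in tendon. TGF-beta ligands are known to induce Scx, and mouse limb mesenchyme that lacks the type II receptor fails to keep its tendon progenitors. In the head, tendon fibroblasts come from the neural crest.

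The targeted gene Tgfbr2 read 12.63, 12.76, 12.55 and 11.73 on mutant arrays 1 to 4 with its brightest probe set, against 12.40, 12.38, 11.72 and 11.66 on control arrays 1 to 4. The groups overlapped (difference 0.37, adjusted p = 0.538 in limma). Its dimmer probe sets differed by 0.08 and 0.07, also with overlap. Whether the probes match the floxed segment or RNA outside it is not stated by the labels, so these readings do not check the genotypes.

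Scx and Mkx read below control in mutant cells, by 1.99-fold and 3.27-fold, but neither passed the test over all genes. Both exceeded the median of all probe sets, 6.94, on all 8 arrays. On mutants 1 to 3 they lay near it, Mkx at 6.95 to 7.19 and Scx at 7.12 to 7.40. Six2 and Thbs4 had smaller negative differences, Tnxb a small positive one, and the difference of Tnmd was close to 0 with a wide interval. None of the 6 genes passed at an adjusted p of 0.05 in limma with Benjamini-Hochberg adjustment, where 16 genes of 18193 (0.0879%) did, 0.066% lower and 0.022% higher in mutants. That split, 12 lower and 4 higher, was 11 and 1 with each array centred on its median. Scx, Mkx and Six2 had an unadjusted p under 0.05 with a negative difference, 3 of 6 genes, against 9.69% of all genes. The difference was negative for 5 of the 6 genes and for 51.7% of all genes, with a median of -0.45 over the 6 genes and -0.0078 over all genes. The 6 genes were chosen with earlier results of these data known, so the share and the median are descriptions.

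Scx had a log2 intensity of 7.27, 7.40, 7.12 and 7.89 on mutant arrays 1 to 4, against 8.16, 8.24, 8.85 and 8.39 on control arrays 1 to 4. The highest mutant array lay below the lowest control array, a separation that 5.18% of all genes had in this direction and 2.89% in the other. It was the 1 gene of the 6 whose groups did not overlap. The means were 7.42 ± 0.33 in mutant and 8.41 ± 0.31 in control arrays (SD, n = 4 each). The difference was -0.99 on the log2 scale (SE 0.20, 95% interval -1.45 to -0.53, unadjusted p = 0.00104, adjusted p = 0.161 in limma). Of all genes, 143 had a more negative difference and Scx ranked 116th by p.

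The other Scx probe set was dimmer and also separated the genotypes. All its mutant readings and those of controls 2 and 4 lay below the median of all probe sets, 6.94, in the dim range. It read 6.50, 6.48, 6.22 and 6.58 on the mutant arrays, against 6.99, 6.62, 7.09 and 6.76 on the control arrays. Its difference was -0.42 (SE 0.12, adjusted p = 0.224 in limma over 45037 probe sets). Both Scx probe sets therefore had a negative difference, and on each the highest control array was control 3 and the lowest mutant array mutant 3.

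Mkx, which encodes the factor Mohawk, read 6.95, 7.19, 7.04 and 8.71 on mutant arrays 1 to 4, against 9.65, 9.44, 9.31 and 8.31 on control arrays 1 to 4. Mutants 1 to 3 lay below every control, while mutant 4 lay above control 4, so the groups overlapped through this pair of arrays. The means were 7.47 ± 0.83 in mutant and 9.18 ± 0.59 in control arrays (SD, n = 4 each). The difference was -1.71 (SE 0.44, 95% interval -2.71 to -0.71, unadjusted p = 0.00412, adjusted p = 0.187 in limma). Of all genes, 23 had a more negative difference. By p Mkx ranked 390th, and its spread within genotypes was larger than that of 96.7% of genes.

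**Figure D1:**
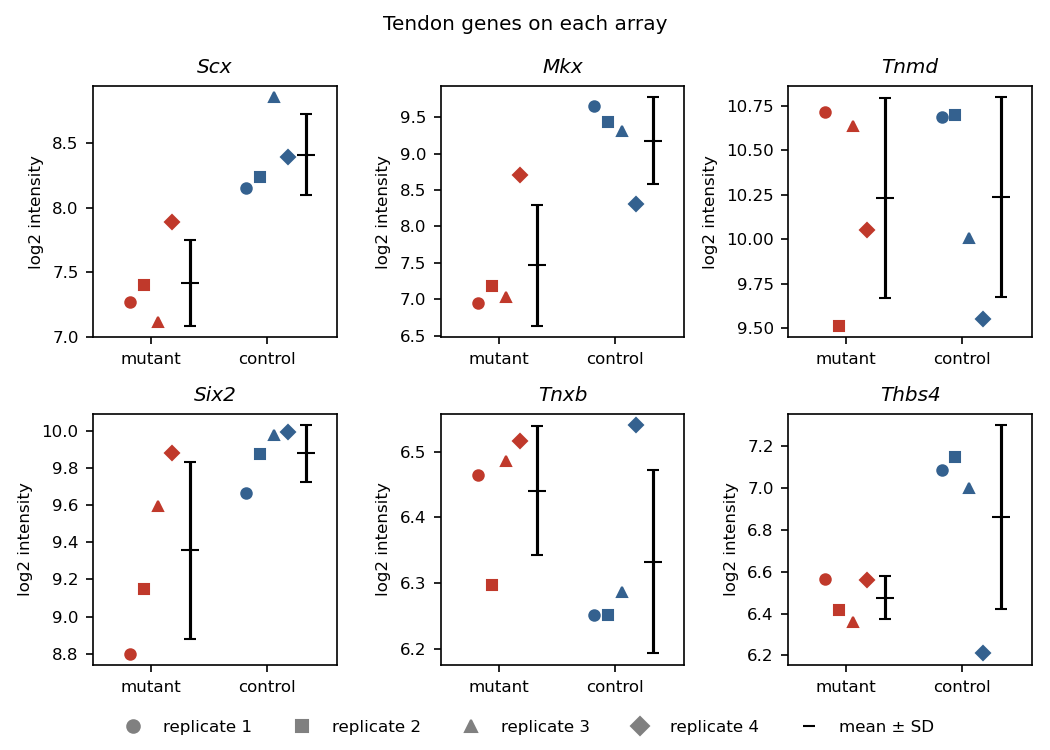
Log2 intensity of the 6 genes on each array (vertical axes, scaled per gene), with mutant arrays in red on the left and control arrays in blue on the right of each panel, marker shape giving the replicate number and black bars the mean ± SD of 4 arrays. All Scx points of the mutants lie below those of the controls, and Mkx overlaps only through mutant 4 at 8.71 and control 4 at 8.31.

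Six2, a homeobox factor of craniofacial mesenchyme that also maintains nephron progenitors, read 8.80, 9.15, 9.60 and 9.88 on mutant arrays 1 to 4. It read 9.66, 9.88, 9.98 and 9.99 on control arrays 1 to 4. Mutants 1 to 3 lay below all controls and mutant 4 at the level of control 2. The means were 9.36 ± 0.48 in mutant and 9.88 ± 0.15 in control arrays (SD, n = 4 each), a difference of -0.52 (SE 0.22, 95% interval -1.03 to -0.02, adjusted p = 0.309 in limma).

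Thbs4 encodes a thrombospondin that in mice is abundant in tendon matrix and shapes its collagen fibrils. It read 6.56, 6.42, 6.36 and 6.56 on mutant arrays 1 to 4, against 7.09, 7.15, 7.0 and 6.21 on control arrays 1 to 4. Controls 1 to 3 lay above every mutant and control 4 below every mutant. The difference was -0.39 (SE 0.20, 95% interval -0.85 to 0.07, adjusted p = 0.387 in limma). The mean of Thbs4, at 6.47 ± 0.10 in mutant and 6.86 ± 0.44 in control arrays (SD, n = 4 each), was below the median of all probe sets, 6.94, in the dim range of these arrays.

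Tnmd encodes tenomodulin, a membrane glycoprotein of mature tendon whose expression in mouse tendons depends on Scx. It read 10.72, 9.51, 10.64 and 10.05 on mutant arrays 1 to 4, against 10.69, 10.70, 10.01 and 9.55 on control arrays 1 to 4. Each genotype spanned more than 1 log2 unit and the ranges nearly coincided. The means were 10.23 ± 0.56 in mutant and 10.24 ± 0.56 in control arrays (SD, n = 4 each). The difference of -0.0066 had a 95% interval of -0.79 to 0.77 (adjusted p = 0.994 in limma). Differences of either sign within that interval remained compatible with these arrays. Tnmd lies on the X chromosome, and control 3 was the 1 array with a high reading of Xist, the RNA of the inactive X in females, at 11.48. The other 7 arrays read 5.93 to 6.59 for Xist, and the part of sex in these values was not tested.

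Tnxb encodes tenascin X, a large glycoprotein that binds collagen fibrils. It read 6.46, 6.30, 6.49 and 6.52 on mutant arrays 1 to 4, against 6.25, 6.25, 6.29 and 6.54 on control arrays 1 to 4. All 8 values lay below the median probe set. The difference was 0.11 (SE 0.09, 95% interval -0.10 to 0.32, adjusted p = 0.605 in limma), with means of 6.44 ± 0.10 in mutant and 6.33 ± 0.14 in control arrays (SD, n = 4 each).

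**Figure D2:**
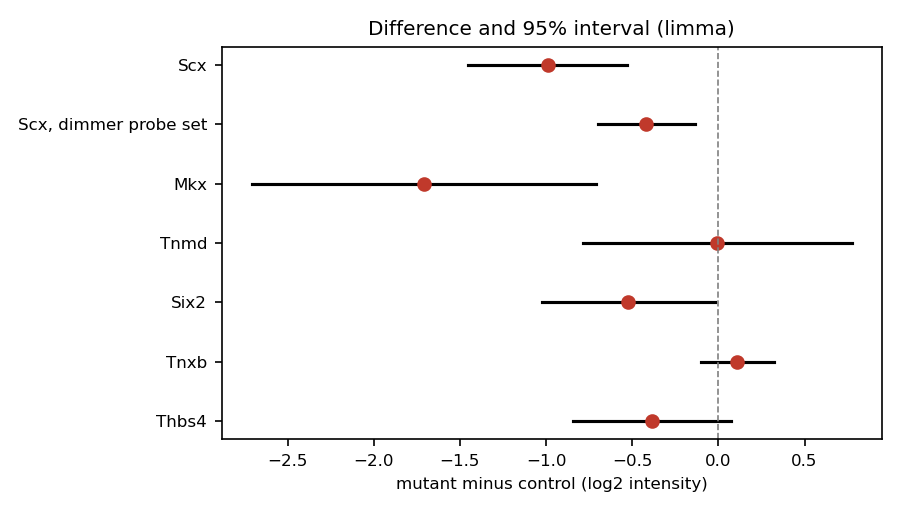
Difference between mutant and control arrays (horizontal axis, log2 intensity, mutant minus control) for each of the 6 genes and the dimmer Scx probe set, with points for the limma estimate and lines for its 95% interval. The intervals of Scx, Mkx and Six2 lie below 0, those of Tnmd, Tnxb and Thbs4 cross 0, and no gene passed after adjustment over all genes.

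Promoter windows of 250 bases before a transcript start were matched by symbol for Tnmd, Six2, Tnxb and Thbs4, 4 of the 6 genes, in a RefSeq table of the GRCm38.p6 assembly. The windows of Tnmd, Six2 and Thbs4 adjoin the annotated gene, whereas the Tnxb window lies inside the span annotated for the gene, so it precedes the start the table uses and not the outermost one. They are shown because Scx binds E-boxes and the Smad proteins downstream of the receptor bind a short element. Capitals mark the E-box CANNTG and the Smad element CAGAC, searched on both strands, the other strand of the second reading GTCTG; no E-box overlapped a Smad element.
Tnmd (chrX:133850758-133851007, + strand): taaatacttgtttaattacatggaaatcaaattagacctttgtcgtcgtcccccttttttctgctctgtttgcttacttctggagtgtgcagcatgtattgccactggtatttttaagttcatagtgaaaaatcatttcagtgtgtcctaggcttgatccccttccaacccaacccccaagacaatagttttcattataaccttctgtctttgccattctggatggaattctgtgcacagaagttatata
Six2 (chr17:85688255-85688504, - strand): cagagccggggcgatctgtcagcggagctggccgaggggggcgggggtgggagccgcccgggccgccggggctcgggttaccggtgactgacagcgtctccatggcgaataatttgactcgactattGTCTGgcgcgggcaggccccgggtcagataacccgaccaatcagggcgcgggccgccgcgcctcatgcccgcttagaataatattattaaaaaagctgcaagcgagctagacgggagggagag
Thbs4 (chr13:92794819-92795068, - strand): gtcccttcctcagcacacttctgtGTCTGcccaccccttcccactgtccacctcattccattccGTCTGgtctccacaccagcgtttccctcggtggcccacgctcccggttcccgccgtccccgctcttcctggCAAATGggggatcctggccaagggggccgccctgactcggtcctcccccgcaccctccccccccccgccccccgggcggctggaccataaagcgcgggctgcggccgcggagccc
Tnxb (chr17:34670285-34670534, + strand): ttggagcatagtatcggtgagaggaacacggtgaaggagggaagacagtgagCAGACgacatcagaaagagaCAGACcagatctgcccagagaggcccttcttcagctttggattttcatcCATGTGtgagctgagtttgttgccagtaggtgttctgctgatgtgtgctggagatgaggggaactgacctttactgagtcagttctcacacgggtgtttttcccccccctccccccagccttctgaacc
The Tnmd window held neither motif. Six2 had 1 Smad element, GTCTG, 123 bases before the start. Thbs4 had 1 E-box, CAAATG, at 115 bases and 2 Smad elements at 226 and 186 bases. Tnxb had 1 E-box, CATGTG, at 129 bases and 2 Smad elements at 198 and 178 bases. Of 32851 promoter windows of this length, 66.2% held an E-box and 42.2% a Smad element, so these matches are common and describe the letters only. Scx and Mkx had no window in the table.

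Leaving out arrays showed which values turned on mutant 4. Without mutant 4, Scx differed by -1.15 (adjusted p = 0.0186 in limma) and Mkx by -2.12 (adjusted p = 0.0169 in limma), and both passed, in a fit that called 1316 genes. With each of the other 7 arrays left out in turn neither passed, and Scx ran from -1.08 to -0.84 and Mkx from -2.00 to -1.53. Thbs4 moved to -0.61 without control 4 (adjusted p = 0.0685 in limma), and Tnmd ran from -0.23 to 0.23 over the 8 fits, so its sign was not settled.

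**Figure D3:**
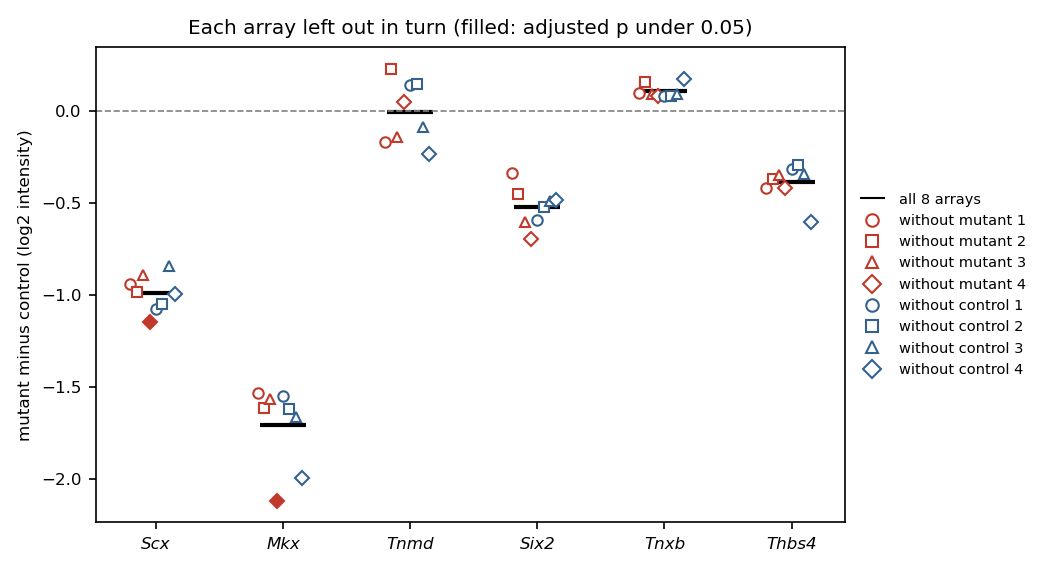
Difference between mutant and control (vertical axis, log2 intensity) for each gene with all 8 arrays (black bars) and with each array left out in turn (red markers, a mutant array left out; blue markers, a control array left out). Filled markers passed the adjusted threshold, which Scx at -1.15 and Mkx at -2.12 did without mutant 4.

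The hybridisation controls for bioB, RNAs added in fixed amounts, divided the arrays into replicates 1 and 2 of both genotypes, at 6.34 to 6.52, and replicates 3 and 4, at 8.24 to 8.79. Within the replicates of low bioB, Scx differed by -0.86 and Mkx by -2.48. Within those of high bioB, Scx differed by -1.12 and Mkx by -0.94. The sign of both was thus the same in each set, with Mkx nearer to 0 in the set that holds mutant 4 and control 4. Six2 differed by -0.80 and -0.25, Thbs4 by -0.63 and -0.15 and Tnmd by -0.58 and 0.57 in the sets of low and high bioB. In the low set, with 2 arrays per genotype, Scx, Mkx, Six2 and Thbs4 passed in limma, where 2085 genes did, and in the high set none did, where 0 genes did and 947 had an unadjusted p under 0.05. With the bioB set as a block over all 8 arrays, the adjusted p in limma was 0.0931 for Scx, 0.117 for Mkx and 0.123 for Six2. The poly-A controls, RNAs added before labelling, read 6.77 to 7.56 on mutants 3 and 4 and control 3 and 8.53 to 9.21 on the other 5 arrays. With that set as a block Scx differed by -1.08 (adjusted p = 0.101 in limma) and Mkx by -1.84 (adjusted p = 0.114).

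Markers of macrophages and leukocytes differed among the same arrays. The 15 macrophage and leukocyte markers all exceeded the median probe set on each of the 8 arrays, and 15 of 15 had a positive difference, with none past the test in limma over all genes and 5 at an unadjusted p under 0.05, where 5.84% of genes were higher at that level. The median difference of the list was 0.77. The brightest, the lysozyme gene Lyz2, had the smallest difference of the 15 (0.09) and read 14.86 ± 0.35 in mutant and 14.77 ± 0.22 in control arrays (SD, n = 4 each). The list's mean per array was 11.98 to 13.63 in mutants and 11.66 to 12.90 in controls. It was 13.50 to 13.63 in mutants 1 to 3, the arrays lowest in Scx and Mkx, and 11.98 in mutant 4. With this mean as a covariate Scx differed by -0.64 (adjusted p = 0.148 in limma), Mkx by -1.39 (adjusted p = 0.254), Six2 by -0.23 and Thbs4 by -0.52. Tnmd differed by -0.41 and Tnxb by 0.19 in that fit. Thbs4, Tnmd and Tnxb were farther from 0 than without the covariate, and Scx, Mkx and Six2 were nearer to it. In RNA from mixed cultures, fewer cells of a type and less RNA per cell cannot be told apart. The part of leukocytes in the differences was not tested beyond this covariate.

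Most mesenchymal markers were bright. Of 16 such genes, 12 exceeded the median probe set on every array, with a median difference of -0.02 over the 16. Osr2 and Tbx22 exceeded it on no array, Dlx5 on 5 and Meox2 on 7. Dlx5 differed by -1.13 without overlap between the groups (adjusted p = 0.0607 in limma). Groups without overlap were found for 3 of the 16, each lower in mutants, beside 5.18% of all genes in that direction. The brightest, Col1a2, a chain of type I collagen, was another of the 3, at 14.73 ± 0.09 in mutant and 14.89 ± 0.07 in control arrays (SD, n = 4 each). The list's mean per array was 10.46 to 11.01 in mutants and 10.34 to 11.07 in controls. Skeletal muscle markers, from a tissue that tendon adjoins in the embryo, had a median difference of -0.02, and 5 of 15 exceeded the median probe set on every array. That level was reached by 3 of 12 cartilage markers, with a median difference of -0.09, and by 2 of 6 bone markers, with -0.06. It was reached by 6 of 10 pericyte and smooth muscle markers (median -0.11), 3 of 10 epithelial markers (0.07) and 2 of 10 endothelial markers (0.03).

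**Figure D4:**
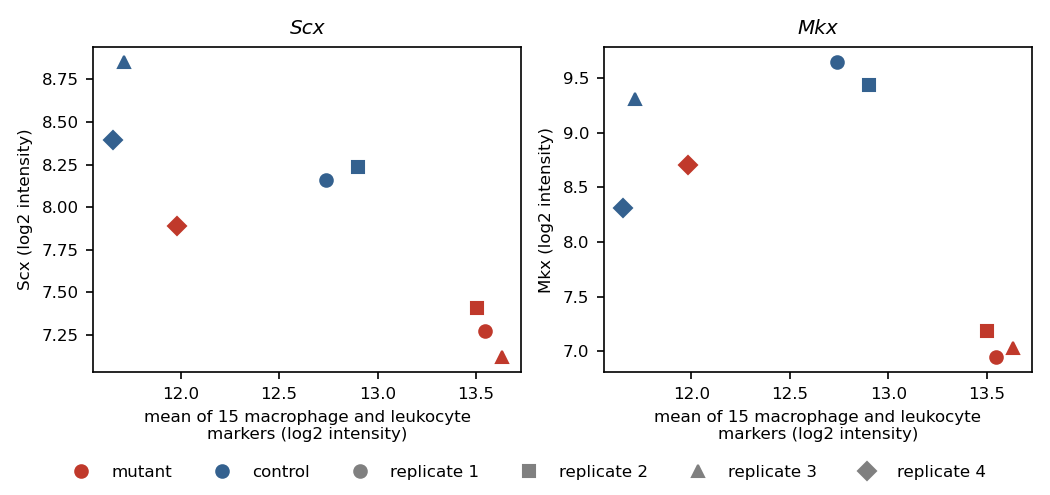
Log2 intensity of Scx (left) and Mkx (right) on each array against the mean log2 intensity of 15 macrophage and leukocyte markers (horizontal axes), with mutants in red, controls in blue and marker shape giving the replicate number. Mutants 1 to 3 lie at 13.50 to 13.63 on the horizontal axis with the lowest Scx and Mkx, and mutant 4 at 11.98.

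Signals and factors of tendon development gave mixed differences. Of 19 measured genes of tendon signalling and transcription, none passed in limma over all genes, 2 were lower and 1 higher at an unadjusted p under 0.05, and 12 were negative, with a median of -0.21. Those shares, 10.5% lower and 5.26% higher, are near the 9.69% and 5.84% of all genes. Sox9, which is expressed with Scx in the progenitors of tendon attachment sites, read 7.49, 7.78, 7.79 and 8.06 on mutant arrays, against 9.10, 9.26, 8.73 and 8.20 on control arrays. Its groups did not overlap, as for Scx, and the difference was -1.04 (SE 0.23, adjusted p = 0.178 in limma). The ligand gene Tgfb3 read 9.81, 10.12, 10.39 and 11.24 on mutant arrays, against 10.83, 10.52, 11.36 and 11.31 on control arrays, with overlap (difference -0.62, adjusted p = 0.384 in limma). The receptor gene Tgfbr1, which pairs with Tgfbr2, differed by 0.41 (adjusted p = 0.221). Smad3 and Smad4, which carry the signal to the nucleus, differed by -0.24 and -0.21. The median of the list changed sign with the macrophage covariate, to 0.022, and was 0.077 within the arrays of low bioB and -0.19 within those of high bioB.

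Tendon and ligament matrix genes had more negative than positive members. Of 33 measured, none passed in limma over all genes, and 13 were lower and 1 higher at an unadjusted p under 0.05, or 39.4% lower against 9.69% of all genes. The median was -0.16, against -0.0078 over all genes, and it was -0.42 within the arrays of low bioB and -0.092 within those of high bioB. Like the other lists of related genes, this list was chosen with earlier results of these data known, so its share and median are descriptions. Of the 33 genes, 27 exceeded the median probe set on every array, whereas the share of all genes includes dim ones. Htra1, a secreted serine protease, had the smallest p of the list and read 11.64, 11.80, 11.73 and 11.57 on mutant arrays. On control arrays Htra1 read 12.44, 12.63, 12.22 and 12.68, above every mutant (difference -0.80, SE 0.11, adjusted p = 0.0686 in limma). Fibin read 8.65, 9.15, 8.75 and 9.46 on mutant arrays, against 10.44, 10.27, 10.41 and 9.66 on control arrays (difference -1.19, SE 0.23, adjusted p = 0.142).

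Col11a1, a chain of the minor fibrillar collagen that helps start fibrils, read 9.87, 10.59, 10.36 and 10.49 on mutant arrays. It read 12.02, 12.22, 11.47 and 10.64 on control arrays, above every mutant (difference -1.26, SE 0.33, adjusted p = 0.189 in limma). Control 4 was again the control nearest the mutants, as it was for Mkx. The lysyl hydroxylase gene Plod2, whose product modifies collagen for cross-linking, read 8.28, 8.83, 8.61 and 9.86 on mutant arrays, against 10.56, 10.37, 10.49 and 10.38 on control arrays. Mutant 4 was the mutant nearest the controls, without overlap (difference -1.56, SE 0.30, adjusted p = 0.142). Col14a1, a fibril-associated collagen, read 9.26, 9.11, 9.43 and 8.36 on mutant arrays, against 8.39, 8.12, 7.63 and 7.50 on control arrays, the 1 matrix gene higher at an unadjusted p under 0.05 (difference 1.13, adjusted p = 0.187).

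**Figure D5:**
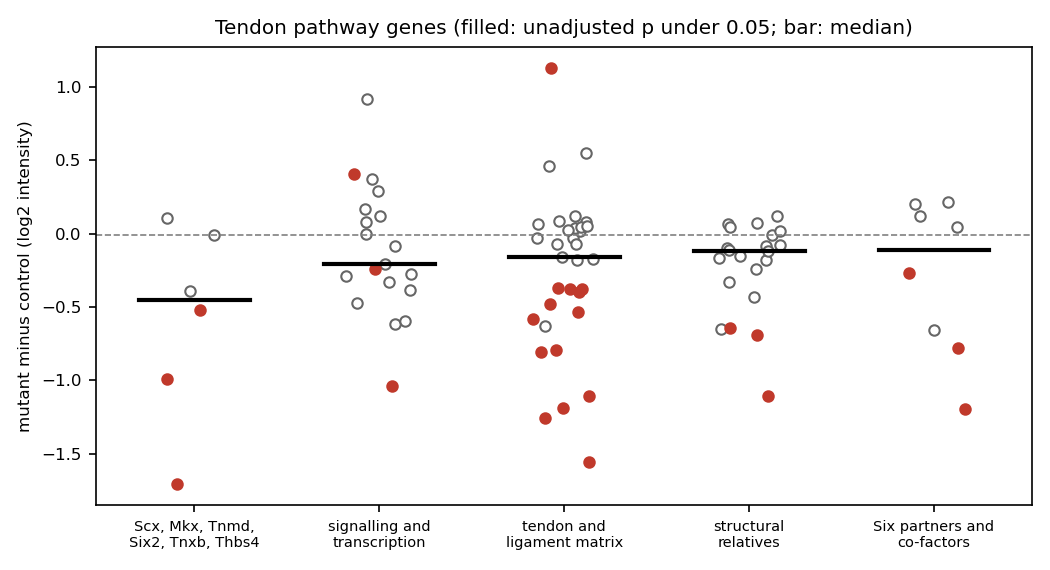
Difference between mutant and control (vertical axis, log2 intensity) of each gene in the set of 6 and in the 4 lists of related genes, with filled points for an unadjusted p under 0.05, black bars for the median and a dashed line for the median of all genes. The 13 matrix genes below 0 at that level lie between -1.56 for Plod2 and -0.37.

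Structural relatives were compared to see whether the members' families shared their differences. Of 21 measured relatives none passed in limma over all genes, 3 were lower and 0 higher at an unadjusted p under 0.05, and the median was -0.12. The 14.3% lower stand beside 9.69% of all genes. Among Iroquois genes, the nearest relatives of Mkx, Irx5 read 7.95, 8.19, 7.84 and 8.30 on mutant arrays, against 8.86, 8.96, 8.48 and 8.54 on control arrays. The groups of Irx5 did not overlap (difference -0.64, SE 0.15, adjusted p = 0.187 in limma), and Irx3 differed by -0.43. Irx2, Irx4 and Irx6 were below the median probe set on every array.

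Tcf15, the helix-loop-helix factor most like Scx, differed by 0.07 and Twist1, a more distant relative, by -0.33. The Six2 relative Six4 read 8.26, 8.39, 8.22 and 9.20 on mutant arrays, against 9.52, 8.97, 9.63 and 8.69 on control arrays (difference -0.69, adjusted p = 0.292 in limma). Cnmd, the cartilage counterpart of Tnmd, was below the median probe set on all arrays and differed by -0.09. Among tenascins, Tnc differed by -1.10 (SE 0.47, adjusted p = 0.309) and Tnr by -0.12, the second below the median probe set on every array. The thrombospondins Thbs1, Thbs2 and Thbs3 differed by -0.15, -0.65 and -0.11.

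Eya proteins bind Six2 and its relatives and lend them a transactivating domain. Of 8 genes for such partners and co-factors in craniofacial mesenchyme, none passed in limma over all genes, 3 were lower and 0 higher at an unadjusted p under 0.05, and 4 were negative, with a median of -0.11. The shares of 37.5% lower, beside 9.69% of all genes, and of 4 in 8 negative, beside 51.7% of all genes, come from 8 genes. They are descriptions, since this list too was chosen with earlier results of these data known. Eya1 read 7.84, 7.47, 8.31 and 8.67 on mutant arrays, against 8.95, 9.17, 8.48 and 8.82 on control arrays (difference -0.78, SE 0.26, adjusted p = 0.237). The groups of Eya1 overlapped through mutant 4. Eya4 differed by -0.66, Dach2 by -1.19 and Eya2 by -0.27. Eya2 was below the median probe set on every array, and Dach2 exceeded it only on controls 3 and 4, at 7.46 and 8.69. Osr1 differed by 0.22.

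The genes whose 8 values were most like those of Scx, by Pearson correlation among 11739 genes above the median probe set, were Ubfd1, Slc4a1ap, Rnf187, Trim32 and Bccip, with r from 0.977 to 0.982. Those most like Mkx were Hilpda, Arfgap3, Trmu, Elp3 and Tsc22d1, with r from 0.975 to 0.984. These coefficients are descriptions over 8 arrays that share the genotype difference and the same cultures. An r above 0.9 was reached with Scx by 350 genes and with Mkx by 248. The 10 named genes differed by between -0.52 for Trim32 and -0.15 for Trmu. Their shared negative sign follows from their choice by likeness to Scx or Mkx, so it is not a separate result.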

How the data were processed

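RNA from the 8 cultures was hybridised to Affymetrix mouse arrays. Per the submitters' processing notes, the authors' deposited log2 intensities came from RMA, whose version the notes leave out. They were used without further scaling. The 45101 probe sets include 64 controls, 932 with several symbols and the 34945 used here, with exactly 1. Symbols were updated through Entrez identifiers in a RefSeq table for 34741 probe sets. Groups came from sample titles. Differences were fitted over 18193 genes, mutant minus control, using R 4.3.3 and its limma package, version 3.58.1, with moderated two-sided tests, no covariate and Benjamini-Hochberg adjustment over all genes. The fit was tested on simulated data.

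The members and the 4 related lists were chosen with earlier results of these data known. Up to 5 genes with the smallest p per list, relatives of the members and Tgfbr2 could be named. So could the 5 genes most like Scx and Mkx and the brightest gene of a marker list. Xist, Osr2, Tbx22, Dlx5 and Meox2 were named after their values were seen. Alternatives were normalization, probe set choice, filters, variance model, array weights, blocks, a macrophage covariate and single arrays left out; the medians of lists within control-level sets were added after seeing the data.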

Additional observations from a re-analysis of the deposited data

Results flagged for a closer look

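In groups of 4 arrays, 1 array stood far from the other 3, by a gap that took most of the group's range (Dixon's 95% criterion). This held for 6 of 76 groups, from 38 probe sets of named genes, 2 of them for Scx, where chance gives about 1 in 20. Among the tendon genes, Mkx read 8.71 on mutant 4, where the next mutant read 7.19. Thbs4 read 6.21 on control 4, where the next control read 7.0. Tnxb read 6.54 on control 4, where the next control read 6.29. Six4 read 9.20 on mutant 4, Trim32 read 9.96 on control 3 and Hilpda read 9.64 on control 4.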

How the results depend on the processing

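No gene of the 6 passed in limma with quantile or median centring, other probe set choices, dim genes left out, a trend in the variance, the control-level blocks or the macrophage covariate. With array weights Scx (-0.94), Mkx (-2.25) and Thbs4 (-0.57) passed, 3 of 6, in a fit that called 1470 genes. Within the arrays of low bioB Scx (-0.86), Mkx (-2.48), Six2 (-0.80) and Thbs4 (-0.63) passed, 4 of 6. With 1 array left out Scx ran from -1.15 to -0.84, Mkx from -2.12 to -1.53, Tnmd from -0.23 to 0.23, and 0 to 2 of the 6 passed, the 2 only without mutant 4. Tnmd changed sign with quantile normalization (0.034) and within the arrays of high bioB (0.57). Scx, Mkx, Six2 and Thbs4 kept a negative and Tnxb a positive sign in every alternative run; Tnxb and Thbs4 had no value with dim genes left out. The cause of these moves was not tested.

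The count of 16 genes over all genes, 12 lower and 4 higher, was 11 and 1 with arrays centred on their medians, 3 in all with the probe set of largest SD, 2 with the poly-A control level block, 27 with the macrophage covariate, 2085 within low bioB and 0 within high bioB, where 947 had an unadjusted p under 0.05. With 1 array left out it ran from 0 to 1316; leaving out mutant 4 gave 1316 and control 4 gave 31, and leaving out mutant 3 or control 3 gave 1, control 2 gave 2, and mutant 1, mutant 2 or control 1 gave 0 (with 1738, 2355 and 2173 at an unadjusted p under 0.05). With the replicate block it was 0 in limma, with 3828 genes at an unadjusted p under 0.05, and Scx had adjusted p = 0.141 and Mkx 0.173; the block moved no call among the 6. Same-numbered arrays deviated from their group means with r of 0.473, 0.416, -0.0916 and 0.371. Each mutant correlated best with a control of another number, so the numbers were not taken as pairs. The best was control 2 for mutant 1 (0.510), control 1 for mutant 2 (0.471), control 2 for mutant 3 (0.317) and control 3 for mutant 4 (0.607).

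With 1 array left out, median differences ran from -0.29 (without mutant 4) to -0.077 (without control 4) for signalling and transcription and from -0.40 (without control 4) to -0.071 (without control 2) for matrix. Signalling and transcription read 0.022 with the macrophage covariate and 0.077 within low bioB, and matrix read -0.42 and structural relatives -0.38 within low bioB; the fits of these lists within sets were chosen after seeing the data. Readings below the median probe set limit what Tnxb, Thbs4 and the dimmer Scx probe set can show.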
